A study of Sus scrofa with 12 samples.

Results

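The genes of the cytosolic ribosome and of the factors that drive translation were described across blood cells exposed to Salmonella, with and without a miR-124 sponge. They were taken by symbol, as those beginning with RPL or RPS and a digit, RPLP, EIF and a digit, or EEF. Kinase genes whose symbols begin with RPS6K, and the Y-linked EIF1AY and RPS4Y1, were not taken. The rule gave 62 of the 7480 genes in the table. They comprise 17 large subunit and 13 small subunit ribosomal proteins, 3 ribosomal protein paralogues, 25 initiation and elongation factors and 4 inhibitors or regulators of initiation. The symbols EEF1A1 and EEF2 were not in the table, so they and other absent genes of these families could not be analysed. All 62 symbols were found among the pig genes of RefSeq.

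The 12 libraries are, per the labels, of PBMC (peripheral blood mononuclear cells) from Duroc x Landrace x Yorkshire piglets aged 4 weeks. Of these, 4 were treated with a miR-124 sponge and Salmonella, 4 with Salmonella, and 4 were untreated controls. A sponge is a molecule meant to bind a microRNA. The series text names the bacterium as Salmonella Typhi and gives collection at 12 h after treatment. The sponge is given by the treatment labels, whereas titles and column names of the same libraries give miR-124 with Salmonella and leave the sponge out. The design held 20 piglets, 10 male and 10 female, and no label ties a library to an animal or a sex. The p-values therefore rest on the spread between the libraries of a group alone, and that spread may be technical.

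A ribosome joins a small subunit, which reads the mRNA, to a large subunit, which forms peptide bonds. In initiation the cap-binding protein eIF4E, the scaffold eIF4G and the helicase eIF4A with its helper eIF4B open the start of the mRNA, and eIF3 holds it on the small subunit. The factor eIF2 brings the initiator tRNA, and eIF1 and eIF1A guide the choice of the start codon. Elongation factors then deliver each further tRNA. In mammals, mRNAs of most ribosomal proteins and of several factors begin with a pyrimidine tract that places their translation under the kinase mTORC1. Lymphocytes are known to hold high levels of ribosomal protein mRNA. Ribosomal protein genes also have many processed copies in mammalian genomes, and how the authors' counting divided reads among copies is not given in the sources used here, so the values of these genes are uncertain.

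All values are on the log2 scale of the deposited table, and depth is unknown because no read counts were used. The library medians ran from 5.11 to 5.31. A set of 184 symbols was taken as silent in blood, such as olfactory receptors and keratin-associated proteins. Only 53 of them had a match among the pig genes of the reference tables, so the silent level is itself uncertain. The set had a mean of 4.62 and a 95th percentile of 5.24, so fold changes of genes near these levels are compressed. This touched 10 of the 62 genes. EIF4E, EEF1A2, RPL10L, RPL22L1 and RPL3L had means below 5.24 in all 3 groups, EIF1AX and RPL32 in Salmonella and control libraries, RPL37 and EIF5A2 in Salmonella libraries, and EIF4EBP1 in sponge plus Salmonella and control libraries. Ties between genes made up 65.1% to 71.4% of a sponge plus Salmonella column, against at most 0.0802% of a Salmonella or control column. For the 62 genes, 10 to 14 values were tied in each sponge plus Salmonella column and 0 elsewhere. The sponge treatment and this property of the columns coincide and cannot be told apart. The Salmonella and control columns shared between 1696 and 1809 exact values per pair, against 610 to 790 for a pair that included a sponge plus Salmonella column. A further 399 symbols (5.33%) had no match among the pig genes of the reference tables. These features are not explained by the sources used here, and how the log2 values relate to sequencing reads of these libraries is uncertain.

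Of the 30 genes of ribosomal proteins, 14 were called lower and 1 higher in Salmonella than in control libraries, and 15 did not pass. Between sponge plus Salmonella and Salmonella libraries 19 of the 30 were called higher and 0 lower by limma, and 21 and 0 at an unadjusted p below 0.05. The 25 initiation and elongation factors moved in both directions, with 4 higher and 7 lower in Salmonella than in control libraries and 6 higher and 3 lower in sponge plus Salmonella than in Salmonella libraries. A gene was called when its adjusted p was below 0.05 in the fit over all 7480 genes. With Salmonella against control 28 of the 62 genes (45.2%) were called, where 33.6% of all genes were. Of these, 22 (35.5%) were lower and 6 (9.68%) higher, against 17.9% and 15.7% of all genes. For sponge plus Salmonella against Salmonella 28 of the 62 (45.2%) were called, where 25.0% of all genes were. Here 25 (40.3%) were higher and 3 (4.84%) lower, against 11.9% and 13.2% of all genes. Between sponge plus Salmonella and control libraries 29 genes (46.8%) were called, where 40.9% of all genes were, with 16 (25.8%) higher and 13 (21.0%) lower against 17.9% and 23.0% of all genes. Centring each library on its median, which shifted the median of all genes by -0.12 in this last comparison, gave 15 higher and 20 lower. The lower count was 8 without control replicate 1 or control replicate 4. The 4 libraries of each group did not overlap for 25 of the 62 genes with Salmonella against control (6 higher and 19 lower, where 35.6% of all genes did not overlap, 15.7% higher and 19.9% lower). They did not overlap for 23 genes (21 higher and 2 lower) between sponge plus Salmonella and Salmonella, where the share of all genes was 23.8%, 10.6% higher and 13.2% lower. Between sponge plus Salmonella and control this held for 27 genes (16 higher and 11 lower), against 39.7% of all genes. The median log2 fold change of the 62 genes was -0.11 for Salmonella against control, 0.33 for sponge plus Salmonella against Salmonella and -0.04 for sponge plus Salmonella against control, beside -0.02, -0.04 and -0.07 over all genes. The -0.11 was -0.21 without Salmonella replicate 1, and -0.20 both with median centring and with quantile normalization. The -0.04 turned to 0.01 without sponge plus Salmonella replicate 2 and was -0.16 with median centring. The first 2 comparisons share the Salmonella libraries, so their values are set side by side and not correlated.

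**Figure D1:**
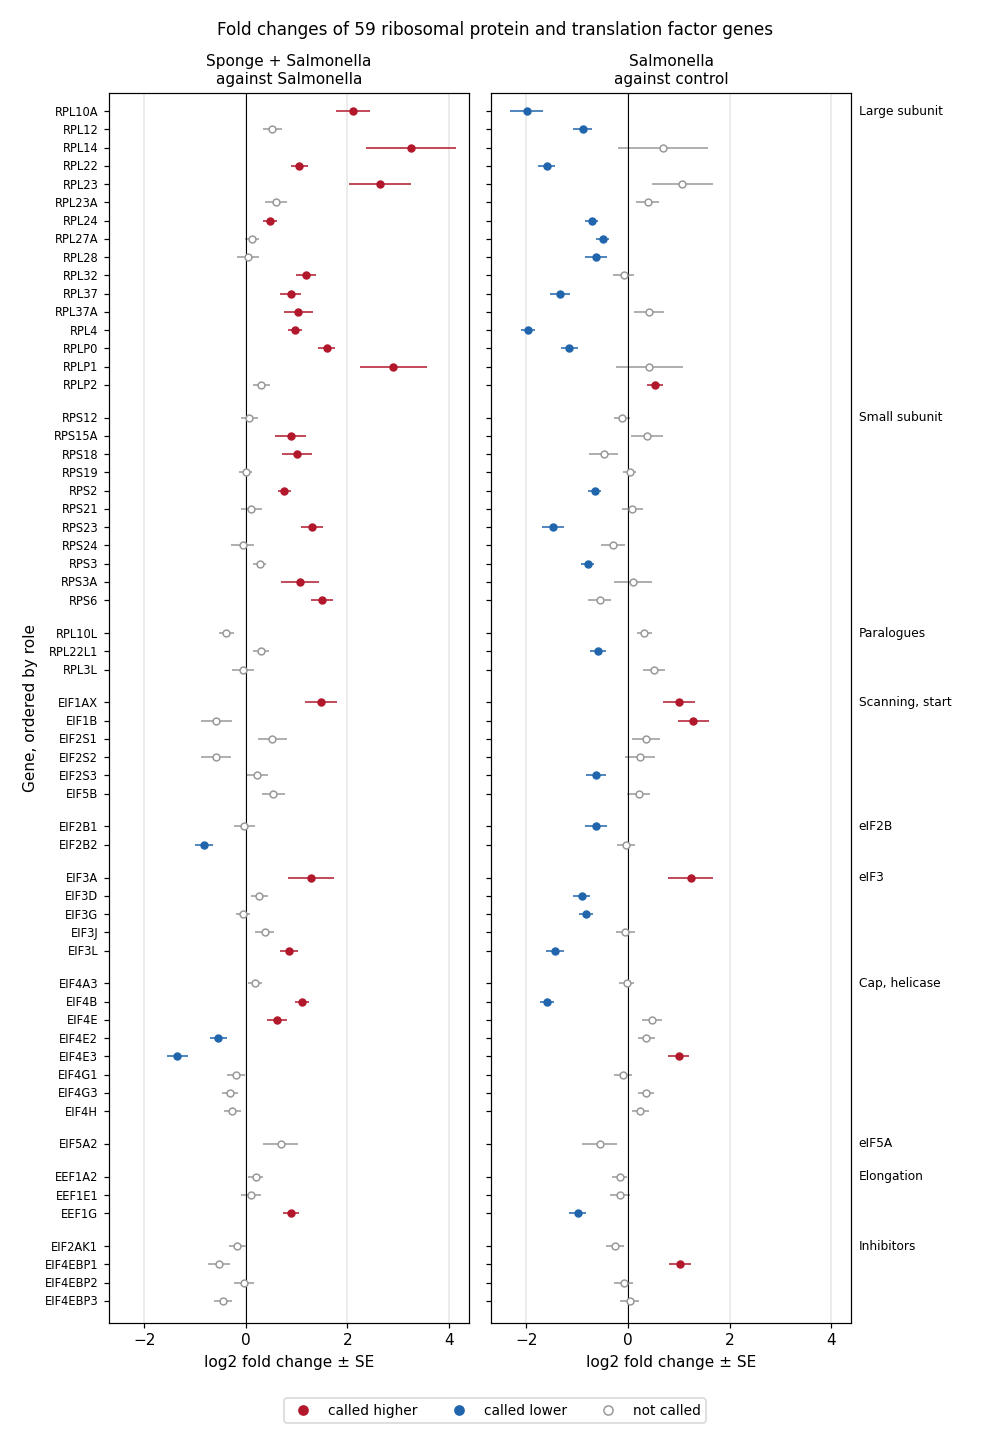
Log2 fold change ± SE (horizontal axis) of 59 of the 62 genes (rows, grouped by role) for sponge plus Salmonella against Salmonella (left) and Salmonella against control (right), with called genes filled. On the left 23 of the genes shown are called higher and 3 lower, and on the right 6 are called higher and 20 lower.

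**Figure D2:**
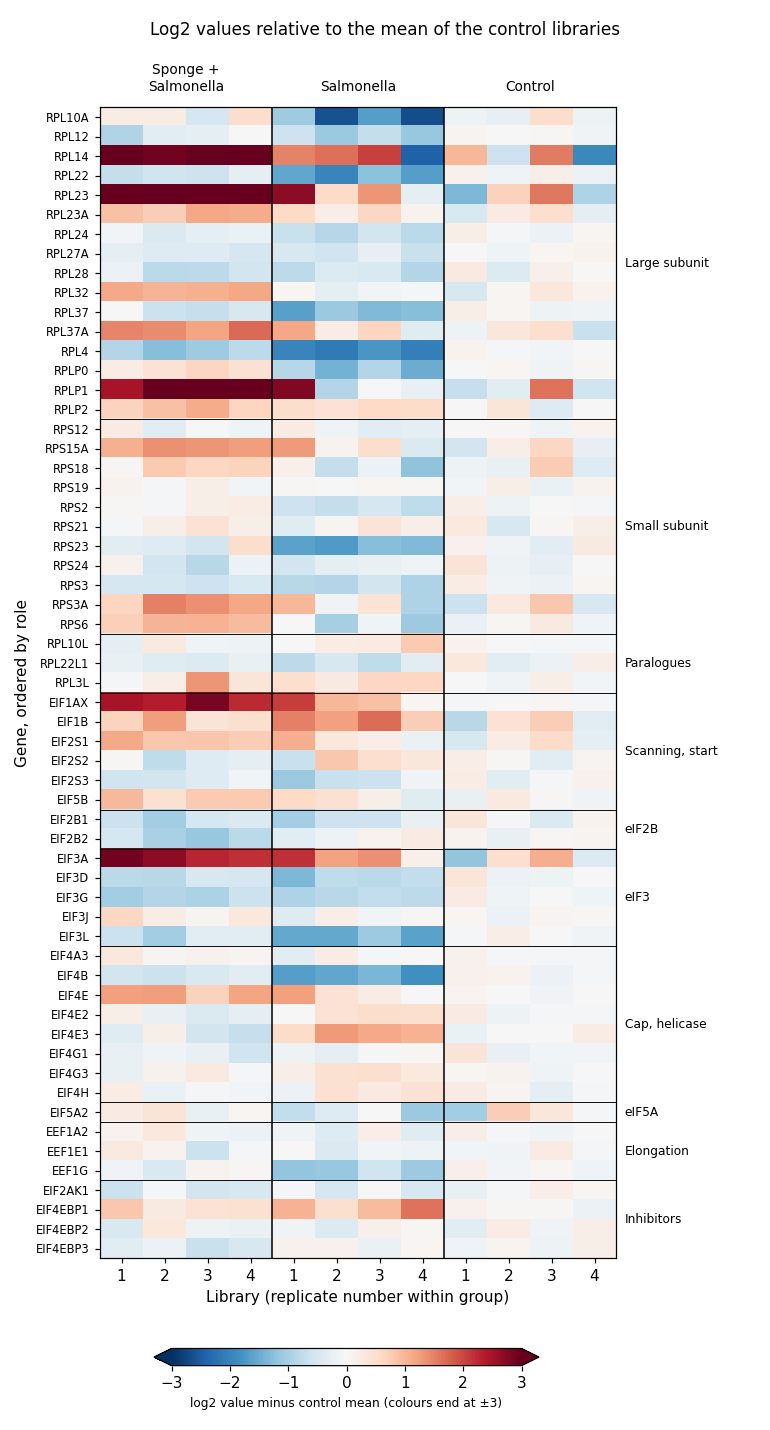
Log2 value minus the mean of the control libraries for 59 of the 62 genes (rows) in each of the 12 libraries (columns), with colours ending at 3 log2 units. RPL14, RPL23, RPLP1, EIF1AX and EIF3A stand above the control mean in all 4 sponge plus Salmonella libraries, and RPL4, RPL10A, RPL22 and EIF4B stand below it in all 4 Salmonella libraries.

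Of the 17 large subunit genes, 9 were lower and 1 higher with Salmonella than in control, with a median log2 fold change of -0.50. That is 58.8% called, where 33.6% of all genes were. Against Salmonella alone, 11 were higher and 0 lower with the sponge by limma, with a median of 0.97. At an unadjusted p below 0.05 these were 13 higher and 0 lower. The limma calls make up 64.7%, where 25.0% of all genes were called. RPL4 (chromosome 1, 164476269 to 164481765 in Sscrofa11.1) encodes a protein that lines the peptide exit tunnel. RPL4 stood at 12.47, 12.08, 12.29 and 12.56 in sponge plus Salmonella libraries, 11.38, 11.24, 11.60 and 11.31 in Salmonella libraries and 13.47, 13.32, 13.27 and 13.36 in control libraries. No 2 groups overlapped, and the sponge plus Salmonella libraries lay between the others. RPL4 fell by 1.97 ± 0.14 (SE) with Salmonella against control (adjusted p = 5.94e-07). It was higher by 0.97 ± 0.14 in sponge plus Salmonella against Salmonella (adjusted p = 4.06e-04) and remained lower than in control (-1.004 ± 0.14, adjusted p = 1.39e-04).

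RPLP0 (chromosome 14, 40219196 to 40223943), which encodes the base of the ribosomal stalk that recruits elongation factors, had 12.98, 13.20, 13.41 and 13.23 in sponge plus Salmonella libraries, 11.92, 11.36, 11.89 and 11.28 in Salmonella libraries and 12.78, 12.83, 12.65 and 12.80 in control libraries. The Salmonella libraries were the lowest, with no overlap. The log2 fold change was -1.15 ± 0.16 for Salmonella against control (adjusted p = 1.11e-04) and 1.59 ± 0.16 for sponge plus Salmonella against Salmonella (adjusted p = 4.95e-05). The sponge plus Salmonella libraries were also above control (0.44 ± 0.16, adjusted p = 0.0439), a call lost without sponge plus Salmonella replicate 2, 3 or 4 or any 1 of the control replicates (adjusted p 0.0676 to 0.115). It was lost with median centring too (adjusted p = 0.120).

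RPL22 (chromosome 6, 67092892 to 67102086), a large subunit protein needed for alpha-beta T cell development in mice, had 10.88, 10.99, 10.97 and 11.32 in sponge plus Salmonella libraries, 10.03, 9.62, 10.37 and 9.95 in Salmonella libraries and 11.73, 11.47, 11.76 and 11.42 in control libraries. The groups did not overlap. The fold change was -1.60 ± 0.17 for Salmonella against control (adjusted p = 8.81e-06) and 1.05 ± 0.17 for sponge plus Salmonella against Salmonella (adjusted p = 7.91e-04). Against control it was -0.55 ± 0.17 in sponge plus Salmonella libraries (adjusted p = 0.0169), a call lost with quantile normalization (adjusted p = 0.164). RPL10A, which contributes to the site where tRNAs leave the ribosome, had 11.73, 11.72, 10.97 and 12.02 in sponge plus Salmonella libraries, 10.44, 8.88, 9.84 and 8.84 in Salmonella libraries and 11.36, 11.25, 12.03 and 11.36 in control libraries. All 4 Salmonella libraries were below every other library, though they spread over 1.61 log2 units. Its fold change was -1.999 ± 0.33 (adjusted p = 3.43e-04) for Salmonella against control and 2.11 ± 0.33 (adjusted p = 6.10e-04) for sponge plus Salmonella against Salmonella.

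Among the other large subunit genes, falls with Salmonella against control were called for RPL37 (-1.34 ± 0.20), RPL12 (-0.90 ± 0.19), RPL24 (-0.72 ± 0.13), RPL28 (-0.63 ± 0.21) and RPL27A (-0.50 ± 0.13). The RPL28 call was lost without Salmonella replicate 1 or 4 or control replicate 1, 3 or 4 (adjusted p 0.0703 to 0.101). The gene called higher was RPLP2, an acidic protein of the stalk, which had 13.54, 13.44, 13.60 and 13.56 in Salmonella libraries, against 13.03, 13.37, 12.62 and 13.02 in control libraries. Its difference of 0.53 ± 0.16 (adjusted p = 0.0218) was not called without Salmonella replicate 3 or control replicate 3 (adjusted p 0.0507 to 0.0711), nor with median centring (adjusted p = 0.0509) or quantile normalization (adjusted p = 0.196). Higher in sponge plus Salmonella than in Salmonella libraries, besides the genes described, were RPL32 (1.18 ± 0.20), RPL37A (1.03 ± 0.29), RPL37 (0.88 ± 0.20) and RPL24 (0.47 ± 0.13). The RPL37A and RPL24 calls were lost without sponge plus Salmonella replicate 4 or Salmonella replicate 2 or 4 (adjusted p 0.0527 to 0.0626 for RPL37A and 0.0505 to 0.0566 for RPL24). RPL23A, RPL12, RPL27A and RPL28 missed the threshold in this comparison, with differences between 0.05 and 0.59.

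RPL23, RPL14 and RPLP1 gave the 3 largest differences among the 62 genes between sponge plus Salmonella and Salmonella libraries, and were singled out after their values were seen. RPL23 (chromosome 12, 23279965 to 23285538) encodes a protein that in human cells also binds the p53 regulator MDM2 when unassembled. RPL23 had 12.03, 12.37, 12.43 and 12.35 in sponge plus Salmonella libraries, 11.26, 9.15, 9.91 and 8.30 in Salmonella libraries and 7.25, 9.29, 10.16 and 7.66 in control libraries. The sponge plus Salmonella libraries were tight and above all others, and the other groups overlapped. RPL23 was higher by 2.64 ± 0.60 in sponge plus Salmonella against Salmonella (adjusted p = 0.00638) and by 3.70 ± 0.60 against control (adjusted p = 3.80e-04). For Salmonella against control the difference was 1.07 ± 0.60 (adjusted p = 0.190).

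RPL14 had 9.78, 8.78, 10.35 and 10.39 in sponge plus Salmonella libraries, 7.37, 7.53, 7.93 and 3.46 in Salmonella libraries and 6.87, 5.26, 7.45 and 3.96 in control libraries. Salmonella replicate 4 and control replicate 4 lay below the silent mean of 4.62. The differences were 3.25 ± 0.88 (adjusted p = 0.0156) for sponge plus Salmonella against Salmonella and 3.94 ± 0.88 (adjusted p = 0.00289) against control. RPLP1, the other acidic stalk protein, had 9.96, 11.35, 10.72 and 11.19 in sponge plus Salmonella libraries, 10.26, 6.61, 7.47 and 7.26 in Salmonella libraries and 6.78, 7.15, 9.11 and 6.88 in control libraries. Salmonella replicate 1 fell within the range of the sponge plus Salmonella libraries. The difference was 2.90 ± 0.66 (adjusted p = 0.00638) for sponge plus Salmonella against Salmonella and 0.42 ± 0.66 (adjusted p = 0.663) for Salmonella against control.

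**Figure D3:**
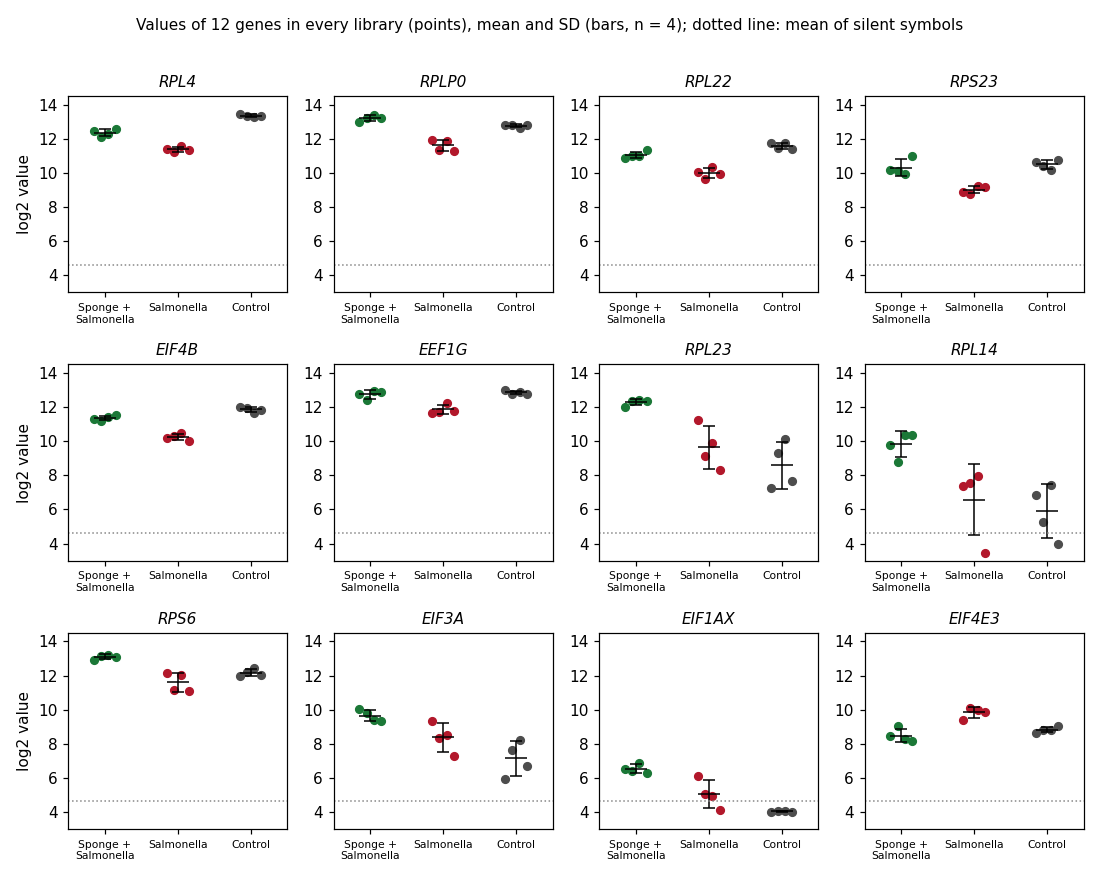
Log2 values of 12 genes in each library (points), with the group mean and SD (bars, n = 4) and the mean of silent symbols (dotted, 4.62), for sponge plus Salmonella, Salmonella and control libraries from left to right. RPL4, RPLP0, RPL22, RPS23, EIF4B and EEF1G are lowest in the Salmonella libraries, while RPL23, RPL14 and EIF3A spread widely in the Salmonella and control libraries.

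Small subunit genes moved in the same directions by count. Of 13, 5 were lower and 0 higher with Salmonella than in control by limma, and at an unadjusted p below 0.05 these were 6 and 0 (median -0.48). The limma calls make up 38.5%, all lower, where 33.6% of all genes were called and 17.9% were lower. With the sponge 8 were higher and 0 lower than with Salmonella alone, also 8 and 0 at an unadjusted p below 0.05 (median 0.75). That is 61.5% called, all higher, where 25.0% of all genes were called and 11.9% were higher. RPS23, a protein of the decoding centre, had 10.15, 10.12, 9.95 and 11.01 in sponge plus Salmonella libraries, 8.88, 8.79, 9.21 and 9.17 in Salmonella libraries and 10.64, 10.39, 10.19 and 10.77 in control libraries. The Salmonella libraries were below all others. The fold change was -1.48 ± 0.22 for Salmonella against control (adjusted p = 1.40e-04) and 1.30 ± 0.22 for sponge plus Salmonella against Salmonella (adjusted p = 0.00102). Sponge plus Salmonella and control libraries overlapped (-0.19 ± 0.22, adjusted p = 0.505).

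RPS6 (chromosome 1, 203444360 to 203447643), the protein phosphorylated by the S6 kinases, had 12.88, 13.17, 13.20 and 13.11 in sponge plus Salmonella libraries, 12.13, 11.16, 12.02 and 11.08 in Salmonella libraries and 11.96, 12.19, 12.42 and 12.06 in control libraries. The sponge plus Salmonella libraries exceeded every other library. RPS6 was higher by 1.49 ± 0.22 in sponge plus Salmonella against Salmonella (adjusted p = 4.84e-04) and by 0.93 ± 0.22 against control (adjusted p = 0.00425). Salmonella against control gave -0.56 ± 0.22 (adjusted p = 0.0637), which was called with median centring (adjusted p = 0.0285) and with quantile normalization (adjusted p = 0.0350). It was also called with both Salmonella replicate 1 and control replicate 3 left out, a setting chosen after seeing the data (adjusted p = 0.0387).

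Of the other small subunit genes, RPS3 (-0.80 ± 0.13) and RPS2 (-0.65 ± 0.13) were called lower with Salmonella against control. For sponge plus Salmonella against Salmonella, RPS2 (0.75 ± 0.13), RPS3A (1.07 ± 0.38), RPS18 (1.01 ± 0.29) and RPS15A (0.88 ± 0.31) were called higher. The RPS3A call was lost without sponge plus Salmonella replicate 2, 3 or 4, Salmonella replicate 2, 3 or 4, or control replicate 2 or 4 (adjusted p 0.0521 to 0.148). The RPS15A call was lost without the same libraries or sponge plus Salmonella replicate 1 (adjusted p 0.0566 to 0.147). The RPS18 call was lost without sponge plus Salmonella replicate 2, 3 or 4 or Salmonella replicate 2 or 4 (adjusted p 0.0527 to 0.0694). RPS12, RPS19, RPS21 and RPS24 passed in none of the 3 comparisons, with log2 fold changes between -0.36 and 0.19. RPS19, whose protein matures the small subunit and is mutated in Diamond-Blackfan anaemia, had 13.58, 13.43, 13.66 and 13.42 in sponge plus Salmonella libraries, 13.53, 13.51, 13.56 and 13.52 in Salmonella libraries and 13.41, 13.67, 13.28 and 13.59 in control libraries.

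The 3 paralogues of ribosomal proteins lay at the level of silent symbols. RPL22L1, the paralogue of RPL22, had 4.90, 4.75, 4.70 and 4.88 in sponge plus Salmonella libraries, 4.33, 4.62, 4.34 and 4.77 in Salmonella libraries and 5.43, 4.76, 4.94 and 5.31 in control libraries. It was called lower with Salmonella (-0.59 ± 0.16, adjusted p = 0.00981), but the size of this fall has no firm meaning at these levels. RPL10L, which in mice and humans is expressed mainly in testis, ranged from 4.30 to 4.85 in sponge plus Salmonella, 4.59 to 5.35 in Salmonella and 4.51 to 4.66 in control libraries. RPL3L, a form of RPL3 of striated muscle, ranged from 4.29 to 5.67 in sponge plus Salmonella, 4.62 to 4.98 in Salmonella and 4.24 to 4.53 in control libraries. Neither was called in any of the 3 comparisons in the main limma fit. For Salmonella against control RPL3L was called higher with 2 groups per fit, replicate number as a block and array weights (adjusted p 0.00520 to 0.0471). With array weights RPL10L was called higher there (adjusted p = 0.0445), as was RPL3L for sponge plus Salmonella against control (adjusted p = 0.0402).

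Among the 6 genes of scanning and start codon choice, 2 were higher and 1 was lower with Salmonella than in control. That is 50.0% called, against 33.6% of all genes. In sponge plus Salmonella 1 was higher than in Salmonella libraries (16.7% called, against 25.0% of all genes). EIF1AX (chromosome X, 16429625 to 16449581) encodes eIF1A, which stabilises the scanning complex. It had 6.52, 6.41, 6.89 and 6.30 in sponge plus Salmonella libraries, 6.14, 5.05, 4.93 and 4.11 in Salmonella libraries and 4.02, 4.08, 4.09 and 4.02 in control libraries. The 3 groups did not overlap, with control lowest, but the control values lay below the silent mean of 4.62, so the sizes are uncertain. The differences were 1.47 ± 0.31 for sponge plus Salmonella against Salmonella (adjusted p = 0.00450) and 1.01 ± 0.31 for Salmonella against control (adjusted p = 0.0229), the second lost without control replicate 1 or 4 (adjusted p 0.0510 to 0.0522).

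EIF1B, a paralogue of the start codon factor eIF1, had 10.70, 11.26, 10.42 and 10.50 in sponge plus Salmonella libraries, 11.52, 11.24, 11.70 and 10.75 in Salmonella libraries and 9.19, 10.44, 10.76 and 9.69 in control libraries. It was higher by 1.28 ± 0.31 with Salmonella against control (adjusted p = 0.00516), with an overlap at the edge of the groups, where Salmonella replicate 4 stood just below control replicate 3. For sponge plus Salmonella against Salmonella it gave -0.58 ± 0.31 (adjusted p = 0.175). EIF2S3, the gamma subunit of eIF2 that holds the initiator tRNA, had 10.52, 10.56, 10.73 and 11.02 in sponge plus Salmonella libraries, 9.99, 10.44, 10.47 and 11.02 in Salmonella libraries and 11.33, 10.80, 11.08 and 11.24 in control libraries. It was lower with Salmonella against control (-0.63 ± 0.20, adjusted p = 0.0247), and this call was lost without Salmonella replicate 1, 2 or 3 or control replicate 1 or 4 (adjusted p 0.0505 to 0.0748).

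EIF5B, which joins the subunits, had 7.70, 7.19, 7.52 and 7.53 in sponge plus Salmonella libraries, 7.33, 7.20, 6.90 and 6.36 in Salmonella libraries and 6.50, 7.03, 6.78 and 6.62 in control libraries. It was called only for sponge plus Salmonella against control (0.75 ± 0.23, adjusted p = 0.0166). EIF2S1, the subunit of eIF2 that stress kinases phosphorylate, was likewise called only in that comparison (0.87 ± 0.28, adjusted p = 0.0229), and not without sponge plus Salmonella replicate 1 or control replicate 1 or 4 (adjusted p 0.0577 to 0.0755). EIF2S2, the beta subunit of eIF2, was not called in any of the 3 comparisons.

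The exchange factor eIF2B recharges eIF2 with GTP, and 2 of its subunits were measured. EIF2B2 had 8.36, 7.90, 7.75 and 8.08 in sponge plus Salmonella libraries, 8.54, 8.74, 8.99 and 9.12 in Salmonella libraries and 8.997, 8.65, 8.90 and 8.96 in control libraries. All sponge plus Salmonella libraries were below all others, with differences of -0.83 ± 0.18 against Salmonella (adjusted p = 0.00457) and -0.86 ± 0.18 against control (adjusted p = 0.00177). EIF2B1 had 8.68, 8.27, 8.79 and 8.89 in sponge plus Salmonella libraries, 8.29, 8.68, 8.69 and 9.09 in Salmonella libraries and 9.69, 9.28, 8.87 and 9.43 in control libraries. Its falls against control, of 0.66 ± 0.21 in sponge plus Salmonella libraries (adjusted p = 0.0220) and 0.63 ± 0.21 in Salmonella libraries (adjusted p = 0.0320), were lost without single libraries. The first was lost without sponge plus Salmonella replicate 2 or control replicate 1 or 4 (adjusted p 0.0559 to 0.0758), and the second without Salmonella replicate 1, 2 or 3 or control replicate 1, 2 or 4 (adjusted p 0.0582 to 0.105).

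Subunits of eIF3 differed from each other in direction. EIF3L, EIF3D and EIF3G were called lower with Salmonella against control and EIF3A higher, and EIF3J was not called. EIF3L had 11.56, 11.15, 11.86 and 11.89 in sponge plus Salmonella libraries, 10.67, 10.67, 11.101 and 10.60 in Salmonella libraries and 12.13, 12.40, 12.18 and 12.08 in control libraries, with no overlap between groups. Its fold change was -1.44 ± 0.18 for Salmonella against control (adjusted p = 3.02e-05) and 0.85 ± 0.18 for sponge plus Salmonella against Salmonella (adjusted p = 0.00362). EIF3D, the subunit that can itself bind the cap of some mRNAs, had 10.49, 10.47, 10.84 and 10.81 in sponge plus Salmonella libraries, 9.96, 10.54, 10.49 and 10.57 in Salmonella libraries and 11.66, 11.12, 11.16 and 11.28 in control libraries. EIF3G had 10.78, 10.94, 10.87 and 11.18 in sponge plus Salmonella libraries, 10.88, 10.98, 11.08 and 11.03 in Salmonella libraries and 12.06, 11.68, 11.83 and 11.70 in control libraries. Both treated groups were below control without overlap for EIF3D and EIF3G. The falls with Salmonella were 0.92 ± 0.17 for EIF3D (adjusted p = 0.00109) and 0.82 ± 0.14 for EIF3G (adjusted p = 3.61e-04), and sponge plus Salmonella against Salmonella gave 0.26 ± 0.17 (adjusted p = 0.274) and -0.05 ± 0.14 (adjusted p = 0.802).

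EIF3A (chromosome 14, 128967645 to 129007168), the largest subunit and a scaffold of the complex, had 10.04, 9.81, 9.42 and 9.32 in sponge plus Salmonella libraries, 9.34, 8.35, 8.51 and 7.29 in Salmonella libraries and 5.94, 7.64, 8.24 and 6.72 in control libraries. The sponge plus Salmonella libraries were above control by 2.51 ± 0.45 (adjusted p = 6.92e-04) without overlap. The difference of 1.23 ± 0.45 for Salmonella against control (adjusted p = 0.0463) was lost without any 1 of the sponge plus Salmonella replicates, Salmonella replicate 1, 2 or 3, or control replicate 1 or 4 (adjusted p 0.0521 to 0.157), and with quantile normalization (adjusted p = 0.0518). That of 1.28 ± 0.45 for sponge plus Salmonella against Salmonella (adjusted p = 0.0499) was lost without any 1 of the sponge plus Salmonella replicates, Salmonella replicate 2, 3 or 4, or control replicate 2 or 4 (adjusted p 0.0565 to 0.150).

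Of the 8 genes of cap binding and unwinding, 1 was lower and 1 higher with Salmonella than in control (25.0% called, against 33.6% of all genes). In sponge plus Salmonella 2 were higher and 2 lower than in Salmonella libraries (50.0% called, against 25.0% of all genes). EIF4B (chromosome 5, 18266471 to 18298745), the helper of the eIF4A helicase and a substrate of S6 and RSK kinases, had 11.32, 11.21, 11.42 and 11.53 in sponge plus Salmonella libraries, 10.21, 10.31, 10.48 and 10.03 in Salmonella libraries and 12.00, 11.97, 11.68 and 11.81 in control libraries. The reference tables list this EIF4B locus as a long noncoding RNA and not as protein-coding, and what this means for its values was not tested. The 3 groups did not overlap, with Salmonella lowest. The fold change was -1.60 ± 0.14 for Salmonella against control (adjusted p = 1.94e-06) and 1.11 ± 0.14 for sponge plus Salmonella against Salmonella (adjusted p = 1.87e-04). EIF4E3 (chromosome 13, 53080200 to 53152335), an atypical cap-binding relative of eIF4E, had 8.48, 9.02, 8.29 and 8.14 in sponge plus Salmonella libraries, 9.38, 10.10, 9.97 and 9.88 in Salmonella libraries and 8.64, 8.82, 8.82 and 9.06 in control libraries. It moved opposite to EIF4B, with the Salmonella libraries above all others. Its fold change was 0.999 ± 0.21 for Salmonella against control (adjusted p = 0.00182) and -1.35 ± 0.21 for sponge plus Salmonella against Salmonella (adjusted p = 5.42e-04).

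EIF4E, the main cap-binding protein, was measured near the silent level, at 5.29, 5.31, 4.76 and 5.24 in sponge plus Salmonella libraries, 5.28, 4.48, 4.29 and 4.08 in Salmonella libraries and 4.14, 4.07, 3.95 and 4.07 in control libraries. It was called higher in sponge plus Salmonella than in control libraries (1.09 ± 0.20, adjusted p = 8.21e-04) and than in Salmonella libraries (0.61 ± 0.20, adjusted p = 0.0361). The second call was lost without sponge plus Salmonella replicate 1, 2 or 4 or Salmonella replicate 2, 3 or 4 (adjusted p 0.0739 to 0.116). EIF4E2, a cap-binding relative that represses translation, had 9.72, 9.33, 9.12 and 9.26 in sponge plus Salmonella libraries, 9.55, 9.98, 10.07 and 10.02 in Salmonella libraries and 9.80, 9.39, 9.50 and 9.50 in control libraries. It was lower in sponge plus Salmonella than in Salmonella libraries (-0.55 ± 0.17, adjusted p = 0.0296), with an overlap between the groups. That call was lost without sponge plus Salmonella replicate 2, 3 or 4 or Salmonella replicate 2, 3 or 4 (adjusted p 0.0560 to 0.0802). The scaffolds EIF4G1 and EIF4G3, the helper EIF4H and EIF4A3, a helicase of the exon junction complex, were not called in any of the 3 comparisons, with log2 fold changes between -0.31 and 0.35.

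Of the 3 elongation genes EEF1G was called. That is 33.3% for Salmonella against control, where all genes gave 33.6%. It is also 33.3% for sponge plus Salmonella against Salmonella, where all genes gave 25.0%. EEF1G (chromosome 2, 9163220 to 9173400), the gamma subunit of the exchange factor of eEF1A, had 12.76, 12.40, 12.95 and 12.90 in sponge plus Salmonella libraries, 11.68, 11.73, 12.27 and 11.78 in Salmonella libraries and 12.9999, 12.78, 12.90 and 12.75 in control libraries. The Salmonella libraries were below both other groups, which overlapped each other. The fold change was -0.995 ± 0.16 for Salmonella against control (adjusted p = 3.54e-04) and 0.89 ± 0.16 for sponge plus Salmonella against Salmonella (adjusted p = 0.00178). EEF1E1, an auxiliary protein of the tRNA synthetase complex, ranged from 7.67 to 8.57 in sponge plus Salmonella, 7.86 to 8.33 in Salmonella and 8.19 to 8.55 in control libraries. EEF1A2, the eEF1A form of muscle and neurons, ranged at the silent level, from 4.57 to 5.05 in sponge plus Salmonella, 4.36 to 4.95 in Salmonella and 4.61 to 4.92 in control libraries. EIF5A2, a second gene for the factor that eases peptide bond formation, had 5.99, 6.13, 5.50 and 5.80 in sponge plus Salmonella libraries, 5.01, 5.35, 5.71 and 4.62 in Salmonella libraries and 4.70, 6.46, 6.08 and 5.69 in control libraries. Its groups overlapped and it was not called in any of the 3 comparisons.

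The 4 inhibitors and regulators included EIF4EBP1, which binds eIF4E and blocks initiation until mTORC1 phosphorylates it. EIF4EBP1 had 5.42, 4.88, 5.05 and 5.06 in sponge plus Salmonella libraries, 5.64, 5.08, 5.56 and 6.24 in Salmonella libraries and 4.72, 4.63, 4.65 and 4.42 in control libraries. It was higher by 1.03 ± 0.22 with Salmonella against control (adjusted p = 0.00245), without overlap, and since the control values lie at the silent level the size is uncertain. For sponge plus Salmonella against Salmonella it gave -0.53 ± 0.22 (adjusted p = 0.0898). Its relative EIF4EBP3 had 6.81, 6.97, 6.48 and 6.66 in sponge plus Salmonella libraries, 7.27, 7.27, 6.96 and 7.21 in Salmonella libraries and 7.03, 7.23, 6.997 and 7.33 in control libraries. EIF4EBP2 ranged from 8.45 to 9.23 in sponge plus Salmonella, 8.52 to 9.07 in Salmonella and 8.61 to 9.15 in control libraries. EIF2AK1, the heme-regulated kinase of eIF2, had 11.23, 11.80, 11.32 and 11.38 in sponge plus Salmonella libraries, 11.81, 11.34, 11.89 and 11.38 in Salmonella libraries and 11.65, 11.82, 12.06 and 11.93 in control libraries. These 3 passed in none of the comparisons, the nearest being EIF2AK1 for sponge plus Salmonella against control (-0.43 ± 0.17, adjusted p = 0.0560), which was called with median centring (adjusted p = 0.0151). EIF4EBP3 gave -0.42 in that comparison (adjusted p = 0.0758) and -0.45 for sponge plus Salmonella against Salmonella (adjusted p = 0.0800). With variances without a trend it was called in both (adjusted p = 0.0240 and 0.0282), and in the comparison with control also with median centring (adjusted p = 0.0247) and array weights (adjusted p = 0.0373). EIF2AK1 was also called against control with 2 groups per fit, a mean of at least 5 and array weights (adjusted p 0.0462 to 0.0486).

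Markers of blood cell types also differed between the groups, and in bulk libraries fewer cells of a type and less RNA per cell cannot be told apart. The mean over the 17 large subunit genes ran from 10.999 to 11.24 in sponge plus Salmonella libraries, 9.44 to 10.33 in Salmonella libraries and 10.10 to 10.72 in control libraries. The mean over the 13 small subunit genes ran from 11.84 to 12.06 in sponge plus Salmonella, 11.04 to 11.53 in Salmonella and 11.74 to 11.88 in control libraries. The mean over 14 measured T cell markers (of 21 listed) ran from 8.33 to 8.93 in sponge plus Salmonella libraries, 7.56 to 8.04 in Salmonella libraries and 8.97 to 9.28 in control libraries. With Salmonella 13 of these 14 were called lower than in control and 0 higher by limma, also 13 and 0 at an unadjusted p below 0.05, and 11 were called higher in sponge plus Salmonella than in Salmonella libraries. These are 92.9% and 78.6% called, where all genes gave 33.6% and 25.0%. The mean over 5 B cell markers (of 12 listed) ran from 7.86 to 8.16 in sponge plus Salmonella, 6.14 to 6.78 in Salmonella and 7.85 to 8.24 in control libraries, with 4 of 5 lower with Salmonella against control and 5 of 5 higher in sponge plus Salmonella against Salmonella.

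The mean over 8 monocyte markers (of 14 listed) ran from 8.98 to 9.50 in sponge plus Salmonella libraries, 9.78 to 10.05 in Salmonella libraries and 7.93 to 8.60 in control libraries. NK and cytotoxic cell genes (6 of 12 measured) ran from 8.99 to 9.64 in sponge plus Salmonella, 8.81 to 9.61 in Salmonella and 10.40 to 10.94 in control libraries. With Salmonella 5 of the 6 were called lower than in control and 0 higher (83.3%). Unlike the T and B cell markers, only 2 of the 6 were called higher in sponge plus Salmonella than in Salmonella libraries, and 0 lower (33.3%). Neutrophil genes (8 of 15 measured) ran from 7.32 to 7.77 in sponge plus Salmonella, 7.64 to 8.74 in Salmonella and 7.38 to 7.91 in control libraries. Erythroid genes (5 of 12) ran from 8.23 to 10.04 in sponge plus Salmonella, 9.90 to 10.52 in Salmonella and 9.37 to 9.84 in control libraries. Platelet genes (7 of 10) ran from 8.47 to 8.85 in sponge plus Salmonella, 8.28 to 8.80 in Salmonella and 7.67 to 7.96 in control libraries. Genes of dendritic cells (5 of 10) ran from 6.19 to 6.52 in sponge plus Salmonella, 5.91 to 6.32 in Salmonella and 6.81 to 7.31 in control libraries. Plasma cell genes (3 of 7) ran from 7.41 to 7.82 in sponge plus Salmonella, 6.84 to 7.81 in Salmonella and 8.06 to 8.65 in control libraries. No marker is at 0 in this table, whose lowest value is 2.13. The part of cell make-up in the ribosomal protein differences was not tested.

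**Figure D4:**
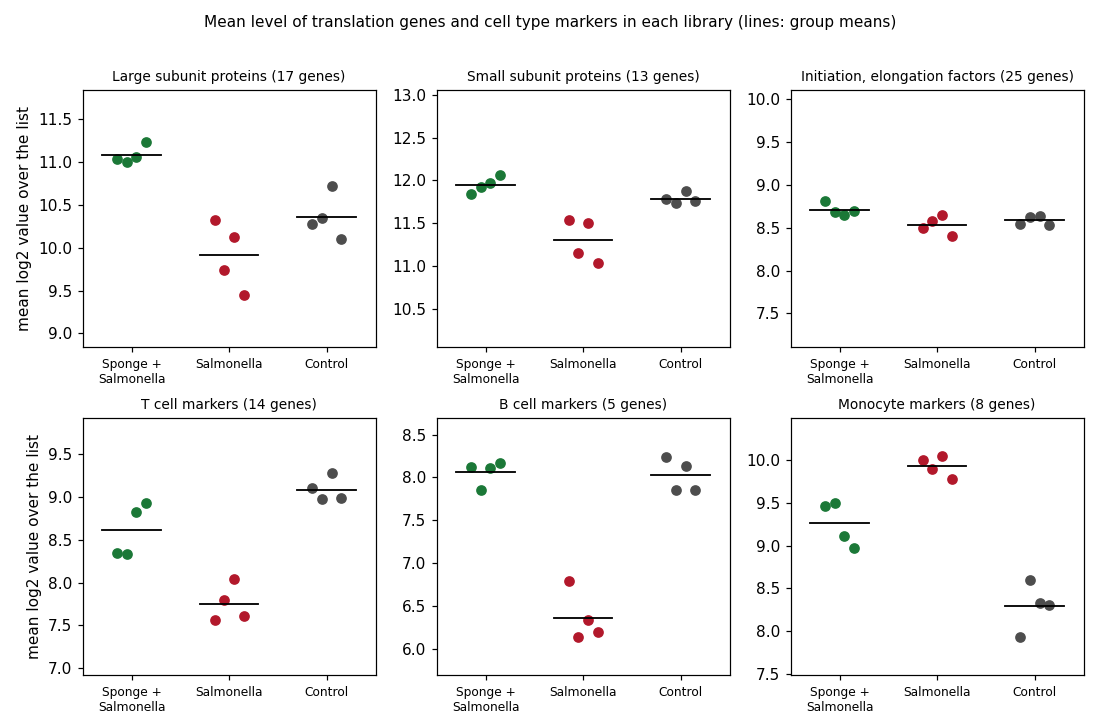
Mean log2 value over each list (vertical axes, all spanning the same range) in each library (points) with group means (lines), for sponge plus Salmonella, Salmonella and control libraries from left to right. The Salmonella libraries have the lowest group means for both ribosomal subunits and for T and B cell markers and the highest for monocyte markers.

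Some members varied widely between libraries of the same group. The SD within groups, pooled over the 3 groups, had a median of 0.26 over the 62 genes and 0.25 over all genes. The 12 genes with the largest values, between 0.49 and 1.57, were RPL14, RPLP1, RPL23, EIF3A, RPS3A, RPL10A, EIF5A2, RPS15A, EIF1B, EIF1AX, RPL37A and RPS18, and they were chosen after their values were seen. They tended to be high or low in the same libraries. Among the control libraries replicate 3 was the highest for 11 of the 12, and replicate 1 was the lowest for 8. Among the Salmonella libraries replicate 1 was the highest for 9 and replicate 4 the lowest for 11. Within the sponge plus Salmonella libraries the highest was replicate 2 for 6 of the 12, replicate 4 for 3, replicate 3 for 2 and replicate 1 for 1.

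Over the 62 genes control replicate 3 was the highest of its group for 33.9% and the lowest for 32.3%. Salmonella replicate 1 was the highest for 30.6% and the lowest for 29.0%, and Salmonella replicate 4 was the lowest for 41.9%. Over all 7480 genes control replicate 3 was the highest of its group for 25.5% and the lowest for 34.4%. There Salmonella replicate 1 was the highest for 24.7% and the lowest for 36.7%, and Salmonella replicate 4 was the lowest for 26.5%. RPS3A shows the pattern, with 12.26, 13.15, 12.99 and 12.79 in sponge plus Salmonella libraries, 12.63, 11.53, 12.04 and 10.70 in Salmonella libraries and 10.99, 11.92, 12.45 and 11.15 in control libraries. RPS15A shows it too, with 12.28, 12.59, 12.54 and 12.46 in sponge plus Salmonella libraries, 12.50, 11.32, 11.75 and 10.78 in Salmonella libraries and 10.64, 11.41, 11.85 and 10.96 in control libraries. With both Salmonella replicate 1 and control replicate 3 left out, 4 genes were higher and 21 lower with Salmonella against control. In the same fit 28 were higher and 5 lower in sponge plus Salmonella against Salmonella. The calls for Salmonella against control lost in this fit were those of EIF1AX (adjusted p = 0.0756), EIF2S3 (adjusted p = 0.0998), RPL28 (adjusted p = 0.134) and RPLP2 (adjusted p = 0.0982).

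**Figure D5:**
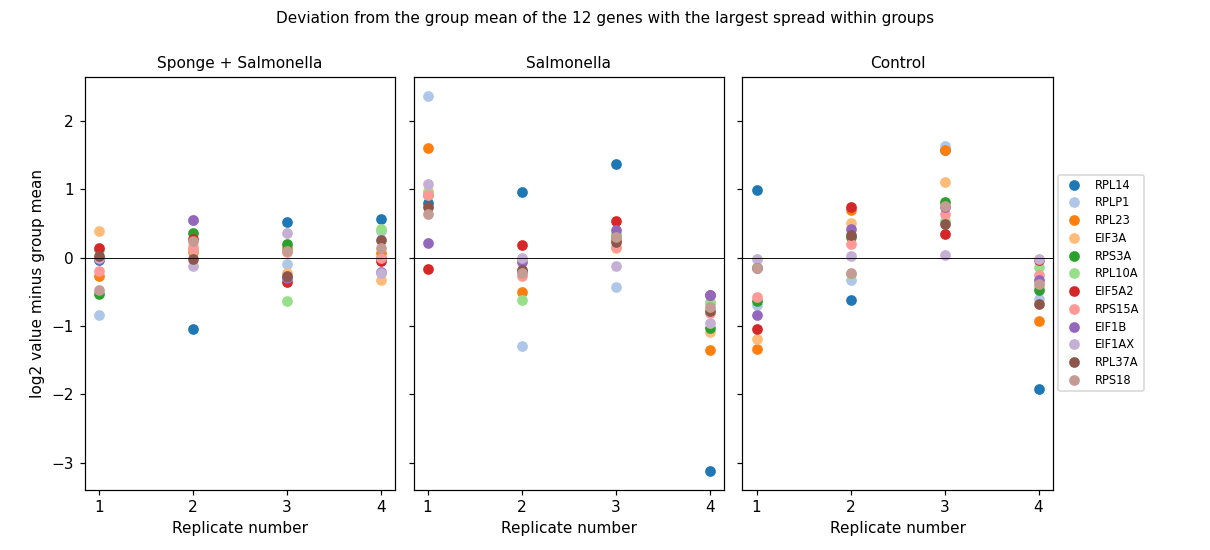
Log2 value minus the group mean (vertical axis) by replicate number (horizontal axis) for the 12 genes with the largest spread within groups, in sponge plus Salmonella, Salmonella and control libraries from left to right. In the control panel replicate 3 is the highest for 11 of 12 genes, and in the Salmonella panel replicate 4 is the lowest for 11 of 12.

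Genes of neighbouring translation pathways were read from lists chosen by function. Of 7 listed genes of MNK, RSK and MSK kinases, of which RSK phosphorylate RPS6 and eIF4B, 3 were measured. All 3 were lower with Salmonella against control and higher in sponge plus Salmonella against Salmonella. That is 100% called in each comparison, where all genes gave 33.6% and 25.0%. RPS6KA2 averaged 6.11 ± 0.22 in sponge plus Salmonella, 3.98 ± 0.34 in Salmonella and 6.75 ± 0.35 in control libraries (SD, n = 4 each), with fold changes of -2.76 ± 0.25 (adjusted p = 2.32e-06) for Salmonella against control and 2.12 ± 0.25 (adjusted p = 1.23e-04) for sponge plus Salmonella against Salmonella. RPS6KA3 (-1.48 ± 0.23 and 3.51 ± 0.23) and RPS6KA5 (-1.02 ± 0.23 and 1.89 ± 0.23) moved likewise in these comparisons. RPS6KA6 is in the table but was not in the list. The Salmonella means of RPS6KA2 and RPS6KA3 and the control mean of RPS6KA3 lay below the silent mean of 4.62, so those sizes are uncertain. Of 12 measured mTORC1 genes (of 28 listed), 3 were lower and 1 higher with Salmonella against control, and 4 were higher and 2 lower in sponge plus Salmonella against Salmonella. These are 33.3% called, where all genes gave 33.6%, and 50.0%, where all genes gave 25.0%. SESN1 (-2.20 ± 0.27) and DDIT4 (-2.20 ± 0.45), which both restrain mTORC1, fell with Salmonella, and RRAGD (1.07 ± 0.27), a GTPase that recruits mTORC1 to lysosomes, rose.

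Of 43 measured ribosome biogenesis genes (of 69 listed), 11 were lower and 5 higher with Salmonella against control, with a median of -0.25. That is 37.2% called, near the 33.6% of all genes. POLR1E (-1.26 ± 0.19), a subunit of RNA polymerase I, and DDX18 (-1.005 ± 0.18), a helicase of large subunit assembly, were lower, and UTP3 (2.17 ± 0.43), a small subunit processome factor with a control mean of 4.48, was higher. For sponge plus Salmonella against Salmonella 6 of the 43 were higher and 3 lower (20.9%, against 25.0% of all genes), with a median of 0.13. Of 10 integrated stress response genes (of 17 listed), 2 were higher and 1 lower with Salmonella against control (30.0%, against 33.6% of all genes). The transcription factor genes ATF5 (2.12 ± 0.26) and CEBPB (1.09 ± 0.19) rose and CEBPG (-0.75 ± 0.17) fell. For sponge plus Salmonella against Salmonella 3 of the 10 were higher and 3 lower (60.0%, against 25.0% of all genes). ATF5 (-1.52 ± 0.26) and CEBPB (-1.001 ± 0.19) were among the lower genes.

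The remaining lists held few measured genes. For Salmonella against control 14.3% of release and recycling genes and 16.7% of ribosome quality control genes were called. For poly(A) binding the share was 66.7%, where 33.6% of all genes were called. Of 7 measured release and recycling genes (of 11 listed) 1 was lower with Salmonella against control, GSPT2 (-0.90 ± 0.24), a release factor, while ABCE1 (-0.48 ± 0.22, adjusted p = 0.112) and PELO (0.35 ± 0.19, adjusted p = 0.156) did not pass. Of 3 measured genes of poly(A) binding (of 11 listed), PABPN1 (-0.58 ± 0.14) was lower and LARP1 (0.86 ± 0.26), which binds the pyrimidine tract of ribosomal protein mRNAs and represses their translation, was higher. The LARP1 call was lost without Salmonella replicate 4 (adjusted p = 0.0574). LARP1 was lower in sponge plus Salmonella than in Salmonella libraries (-0.91 ± 0.26, adjusted p = 0.0193), a call lost without sponge plus Salmonella replicate 3 or Salmonella replicate 4 (adjusted p 0.0574 to 0.0644). PAIP1 (0.41 ± 0.26, adjusted p = 0.246) did not pass. Of 6 ribosome quality control genes (of 18 listed) TCF25 (-1.17 ± 0.20) was lower with Salmonella against control, while ASCC2 (-0.40 ± 0.18, adjusted p = 0.102) and USP10 (0.70 ± 0.32, adjusted p = 0.105) did not pass. Of the tRNA synthetase list AIMP2 (-0.33 ± 0.19, adjusted p = 0.211) and FARSB (-0.11 ± 0.08, adjusted p = 0.323) were the 2 measured of 40 listed, and neither passed for Salmonella against control.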

How the data were processed

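The authors deposited 1 table with a log2 value for each of 7480 genes in 12 libraries, 4 per group. The base of the logarithm is not stated and was taken as 2. The genome build was Sscrofa11.1, per the submitters' processing notes, which also name R 3.4.2 and the aligner Bowtie. How reads were counted and normalized and how genes were filtered is not given in the sources used here. Per the labels, libraries were read as single reads of 50 bases. No counts were used, so the depth is unknown.

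Group means were fitted over all 12 libraries with limma 3.58.1 (R 4.3.3), variances were moderated with a trend on the mean, and p-values were adjusted by Benjamini-Hochberg over all 7480 genes. The fit was tested on simulated data for Salmonella against control, in which 200 of 7480 genes were changed. It called 35.8% of changes of 0.5 log2 units, 68.7% of changes of 1 and 100% of changes of 2. Of its calls, 4.90% were false. In the data 33.6% of all genes were called, far more than were changed in the simulation. These rates may therefore not hold for the data. A gene that was not called may still differ. The members and the lists were chosen with earlier results of these data known. Full values are given for members with, within their role, 1 of the 3 smallest p for Salmonella against control or 1 of the 2 smallest for sponge plus Salmonella against Salmonella, and of each other list for up to 3 genes with the smallest p. The values of 3 of the 62 members, which stay in the counts and medians, are not reported here. Genes outside this rule were chosen after their values were seen. Gene positions are from RefSeq on Sscrofa11.1. Alternatives were variances without a trend, 2 groups per fit, median centring, quantile normalization, a mean of at least 5, array weights, replicate number as a block and leaving out each library.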

Additional observations from a re-analysis of the deposited data

Results flagged for a closer look

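In each group of 4 libraries, the highest or lowest value was set against the other 3 by Dixon's test, for the 62 genes in 3 groups. Of these 186 groups 8 had a value standing apart, where chance gives about 1 in 20. In sponge plus Salmonella libraries EIF4E replicate 3 stood at 4.76, against 5.24 to 5.31 in the others. In Salmonella libraries RPL14 replicate 4 stood at 3.46, against 7.37 to 7.93, and EIF3D replicate 1 at 9.96, against 10.49 to 10.57. Salmonella replicate 3 stood high for EIF3L, at 11.101 against 10.60 to 10.67, and for EEF1G, at 12.27 against 11.68 to 11.78. In control libraries replicate 3 stood high for RPLP1, at 9.11 against 6.78 to 7.15, and for RPL10A, at 12.03 against 11.25 to 11.36. Control replicate 1 stood at 10.11 for EIF4A3, against 9.92 to 9.93.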

How the results depend on the processing

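Fold changes of the 62 genes were recomputed under each alternative in the 3 comparisons. Of 3705 such values 3473 kept their side of the threshold, 158 were no longer called and 74 became called. The sign changed for 92 values, none of them called in either setting. The count of genes called lower for sponge plus Salmonella against control moved to 20 with median centring, against 13, and the count called higher for Salmonella against control moved to 10 with array weights, against 6. Leaving out both Salmonella replicate 1 and control replicate 3, chosen after seeing the data, gave 5 lower for sponge plus Salmonella against Salmonella, against 3. The cause of these changes was not tested. Leaving out 1 library gave 23 to 28 called genes for Salmonella against control (4 to 7 higher, 19 to 22 lower), 19 to 33 for sponge plus Salmonella against Salmonella (17 to 28 higher, 2 to 5 lower, with 5 without Salmonella replicate 1) and 21 to 30 for sponge plus Salmonella against control (13 to 17 higher, 8 to 13 lower). Genes called in the other translation lists for sponge plus Salmonella against Salmonella numbered 16 to 29 against 28, with 16 without Salmonella replicate 4. Of the 12 pairs of libraries with the same replicate number, 2 had deviations from their group means that correlated above 0.1 (range -0.36 to 0.38). Of the 12 libraries, 3 correlated best with their own number. No label says that the numbers pair libraries, and such correlations cannot show whether they do. With replicate number as a block the called genes numbered 29, 25 and 25 in the 3 comparisons, against 28, 28 and 29. Depth is unknown, so what it limits cannot be given.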
